A study of Mus musculus with 30 samples.

Results

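The 9 genes described here, Rbp4, Stra6, Rdh10, Aldh1a1, Aldh1a2, Aldh1a3, Crabp1, Crabp2 and Rarb, carry, take up, oxidize, bind or sense vitamin A. They were taken as the probe sets whose only annotated gene symbol is one of these names, which gave 9 of 72688 probe sets, 1 for each gene, within a table of 30142 genes tested. Affymetrix whole-transcript arrays, 30 in all and 3 in each of 10 groups, measured RNA of the whole uterus in female mice aged 21 days. The mice were estrogen receptor alpha knockouts, labelled Ex3aERKO for the deleted exon and called KO here, or wild type (WT). Into KO and WT mice alike, 17β-estradiol (E2, 250 ng in 100 ul saline) was injected once and the uterus was collected after 2 h or 24 h. Insulin-like growth factor 1 (IGF1) was dosed at 50 ug in PBS, given as 1 injection for collection at 2 h, and as 3 injections, the last at 16 h, for collection at 24 h. Saline vehicle was given once and sampled only at 24 h. Every difference between a 2 h group and vehicle therefore also holds time after injection. IGF1 at 24 h also differs from vehicle in the number of injections and the time since the last. IGF1 differs from vehicle and from E2 in the solvent at both times. Whether the 3 replicates of a group are separate animals, or pools, is not in the labels, so p-values here cover only spread between arrays, which may be technical. The labels name no cell type in which the receptor gene was deleted.

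Retinol travels in blood on retinol binding protein, enters cells through a membrane receptor, and is oxidized first to retinal and then to retinoic acid. Retinoic acid is held in the cytoplasm by cellular binding proteins and acts in the nucleus through retinoic acid receptors, while enzymes of the Cyp26 family break it down. In the mouse uterus the pathway is known for its part in the response to ovarian hormones and in the changes of the stroma around implantation.

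RefSeq promoter windows, 250 bases before the annotated start on GRCm38.p6, were found for 6 of the 9 genes, Crabp1, Stra6, Aldh1a2, Rarb, Aldh1a1 and Rbp4, with 11 windows in all. The windows of 3 genes are printed: Crabp1 and Aldh1a2 because their levels changed most, and Rarb because its window holds the direct repeat known as the retinoic acid response element. The windows lie at chr9:54764498-54764747 on the plus strand for Crabp1, chr9:71215539-71215788 on the plus strand for Aldh1a2 and chr14:16575477-16575726 on the minus strand for Rarb. Capitals mark GC boxes (GGGCGG, either strand) in Crabp1 and the direct repeat in Rarb, and no searched motif was found in the Aldh1a2 window.
Crabp1 promoter: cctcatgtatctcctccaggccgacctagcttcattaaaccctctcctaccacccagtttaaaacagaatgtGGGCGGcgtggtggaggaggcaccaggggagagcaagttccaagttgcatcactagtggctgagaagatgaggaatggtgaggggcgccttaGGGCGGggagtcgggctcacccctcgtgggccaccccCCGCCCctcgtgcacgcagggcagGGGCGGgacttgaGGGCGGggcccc
Aldh1a2 promoter: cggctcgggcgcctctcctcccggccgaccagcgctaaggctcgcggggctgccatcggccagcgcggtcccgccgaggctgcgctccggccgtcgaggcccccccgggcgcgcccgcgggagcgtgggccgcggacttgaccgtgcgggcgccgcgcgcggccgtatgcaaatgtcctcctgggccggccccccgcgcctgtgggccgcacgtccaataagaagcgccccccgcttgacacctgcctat
Rarb promoter: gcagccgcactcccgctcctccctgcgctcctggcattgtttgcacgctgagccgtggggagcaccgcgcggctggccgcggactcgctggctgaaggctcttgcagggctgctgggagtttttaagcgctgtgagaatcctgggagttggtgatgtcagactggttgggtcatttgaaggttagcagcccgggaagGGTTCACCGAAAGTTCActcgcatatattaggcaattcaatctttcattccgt
The Rarb repeat, GGTTCA and AGTTCA around 5 bases, begins at position -53. A direct repeat with this spacer was found in 0.0883% of 32851 promoter windows of the same length, and in no other window of the 6 genes. Crabp1 held 5 GC boxes, a motif found in 32.7% of all windows. A window of Rbp4 (chr19:38124812-38125061, minus strand) held 2 GC boxes and a TATA box (TATAAA), which 12.4% of all windows hold. Of the 4 windows of Stra6, 3 held GC boxes, with 1, 1 and 2 of them, and the windows of Aldh1a2, Rarb and Aldh1a1 held none. Neither the hexamer AGGTCA, present in 14.0% of all windows, nor the estrogen response element palindrome (GGTCA, any 3 bases, TGACC), present in 0.0639%, was found in any of the 11 windows. The direct repeat with a spacer of 2 bases, present in 0.174% of windows, was not found in them either. Both strands were searched. These matches describe letters in short windows and nothing else.

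Several facts of the arrays bear on the results. Values are log2 intensities as deposited, and the level that 95% of 1225 olfactory receptor genes do not exceed served as each array's floor, 5.69 to 6.57, near which a level cannot be told from background. Esr1, which encodes estrogen receptor alpha, read 9.38 to 10.41 on KO arrays and 11.44 to 12.73 on WT arrays, and its probe set may lie outside the deleted exon, so this is a limited check of the labels. WT vehicle replicate 1 stood apart: Xist, the noncoding RNA of the inactive X in females, was at 10.16 on it and at 17.01 to 18.12 on all others, and its array weight, 0.166, was the lowest of all. The fit without it and without KO E2 24 h replicate 2, the array of next lowest weight, is given wherever it changes a call of the 9 genes. For genes other than these 9, no such fit is given gene by gene. Epithelial, stromal and smooth muscle markers are given beside the results they moved with. Fat cell markers differed between arrays of the same group as described with Rbp4. The liver genes Alb and Apoa1 and the ovary genes Amh and Fshr lay at the floor in every group. Of 4 ovary and oviduct markers, 1 lay above the floor in WT E2 2 h and WT IGF1 2 h, and 2 did in every other group. Ttr, also a liver gene, lay above it in WT IGF1 24 h alone. The part of ovary, oviduct or liver RNA in the results was not tested. The median difference over all genes ran from -0.101 to 0.189 over the 21 comparisons and lay farthest from 0 in 4: -0.101 for E2 at 24 h against vehicle in WT, 0.185 for KO minus WT under E2 at 24 h, 0.189 for the genotype interaction of E2 at 24 h and 0.134 for E2 minus IGF1 at 24 h in KO. In bulk tissue, fewer cells of a type and less RNA per cell cannot be told apart.

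E2 changed 6 of the 9 genes in WT uteri, counting both times, and limma called none in KO uteri. In WT, the retinal dehydrogenase gene Aldh1a2 rose 9.57-fold against vehicle at 2 h, and at 24 h the retinoic acid binding protein genes Crabp1 and Crabp2 rose, 53.1-fold and at least 2.92-fold, while Aldh1a3 and Stra6 fell. IGF1 given over 24 h raised Crabp1 in both genotypes, 4.74-fold in KO and 6.35-fold in WT. Limma called a gene at an adjusted p under 0.05, adjusted over all genes within a comparison. Against KO vehicle, 0 of the 9 genes were called by limma for E2 at 2 h (0.365% of all genes called, 0 of the 9 at an unadjusted p under 0.05), 0 for E2 at 24 h (0% of all genes, 0 of the 9 unadjusted), 0 for IGF1 at 2 h (7.13%, 2 unadjusted) and 4 for IGF1 at 24 h (13.6%). Against WT vehicle, 3 were called for E2 at 2 h (19.0% of all genes), 5 for E2 at 24 h (30.1%), 1 for IGF1 at 2 h (17.2%) and 1 for IGF1 at 24 h (4.28%). The 4 comparisons of a genotype share its 3 vehicle arrays.

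**Figure D1:**
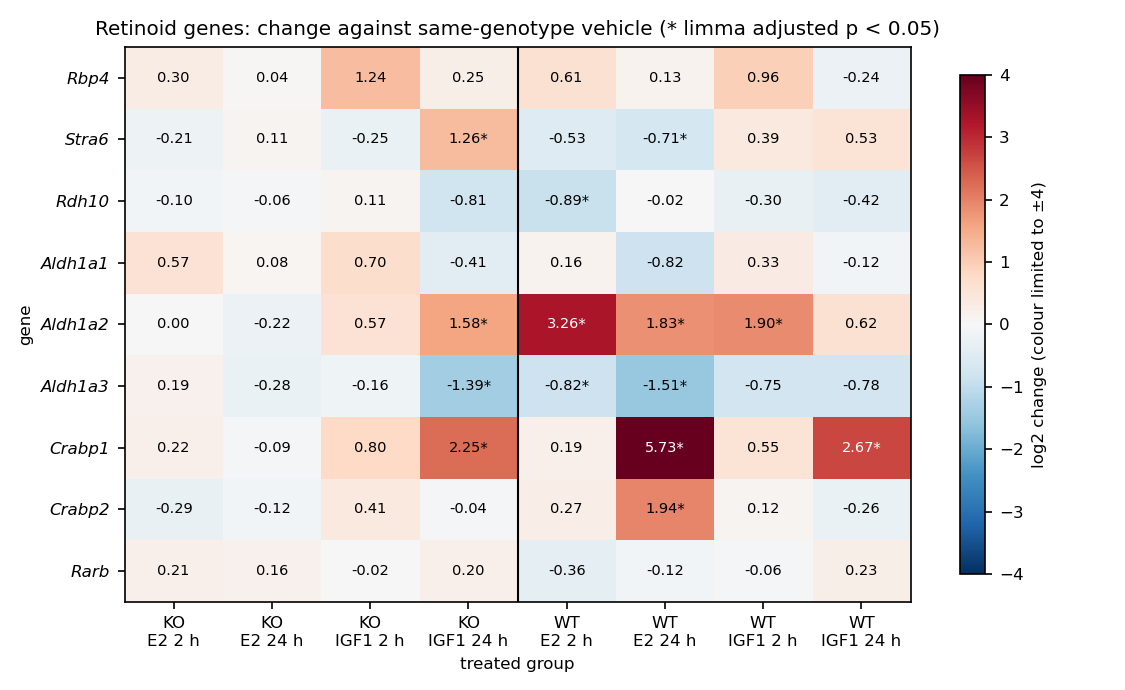
Change of each of the 9 genes (log2, treated minus vehicle of the same genotype, n = 3 arrays a group) in the 4 treated KO groups and the 4 treated WT groups, by colour and number. Asterisks mark limma adjusted p under 0.05; the 2 KO columns of E2 hold none, and Crabp1 at 5.73 and Aldh1a2 at 3.26 in WT E2 groups are the largest values.

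Whether a response differed by genotype was tested as an interaction, the KO change less the WT change. For E2 at 2 h it was called for 1 of the 9 genes (8.00% of all genes), Aldh1a2, and for E2 at 24 h for 5 (22.1%): Crabp1, Crabp2, Aldh1a2, Aldh1a3 and Stra6. For IGF1 limma called 0 of the 9 at 2 h (0.0133% of all genes, 2 of the 9 at an unadjusted p under 0.05) and 0 at 24 h (0.00664%, 2 unadjusted), so no difference between genotypes in the response to IGF1 was detected for these genes. Between KO and WT given the same treatment, 6 of the 9 were called under E2 at 2 h (17.9% of all genes), 6 under E2 at 24 h (47.0%), 3 under IGF1 at 2 h (1.95%), 2 under IGF1 at 24 h (2.86%) and 2 under vehicle (2.92%). The share of all genes called was thus itself high between genotypes under E2. Markers of the main uterine cell types also differed there. Under E2 at 24 h the mean of 6 smooth muscle markers was 11.73 to 13.73 on KO arrays and 15.26 to 15.49 on WT arrays, with 6 of 6 called lower in KO. The mean of 10 epithelium markers was 9.11 to 10.31 on KO arrays and 11.31 to 11.38 on WT arrays, with 6 called lower in KO and Foxa2 at the floor there. The mean of 6 stroma markers was 10.80 to 11.34 on KO arrays and 12.00 to 12.26 on WT arrays, with 3 called lower in KO. Their part in the genotype differences of the 9 genes under E2 at 24 h was not tested.

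**Figure D2:**
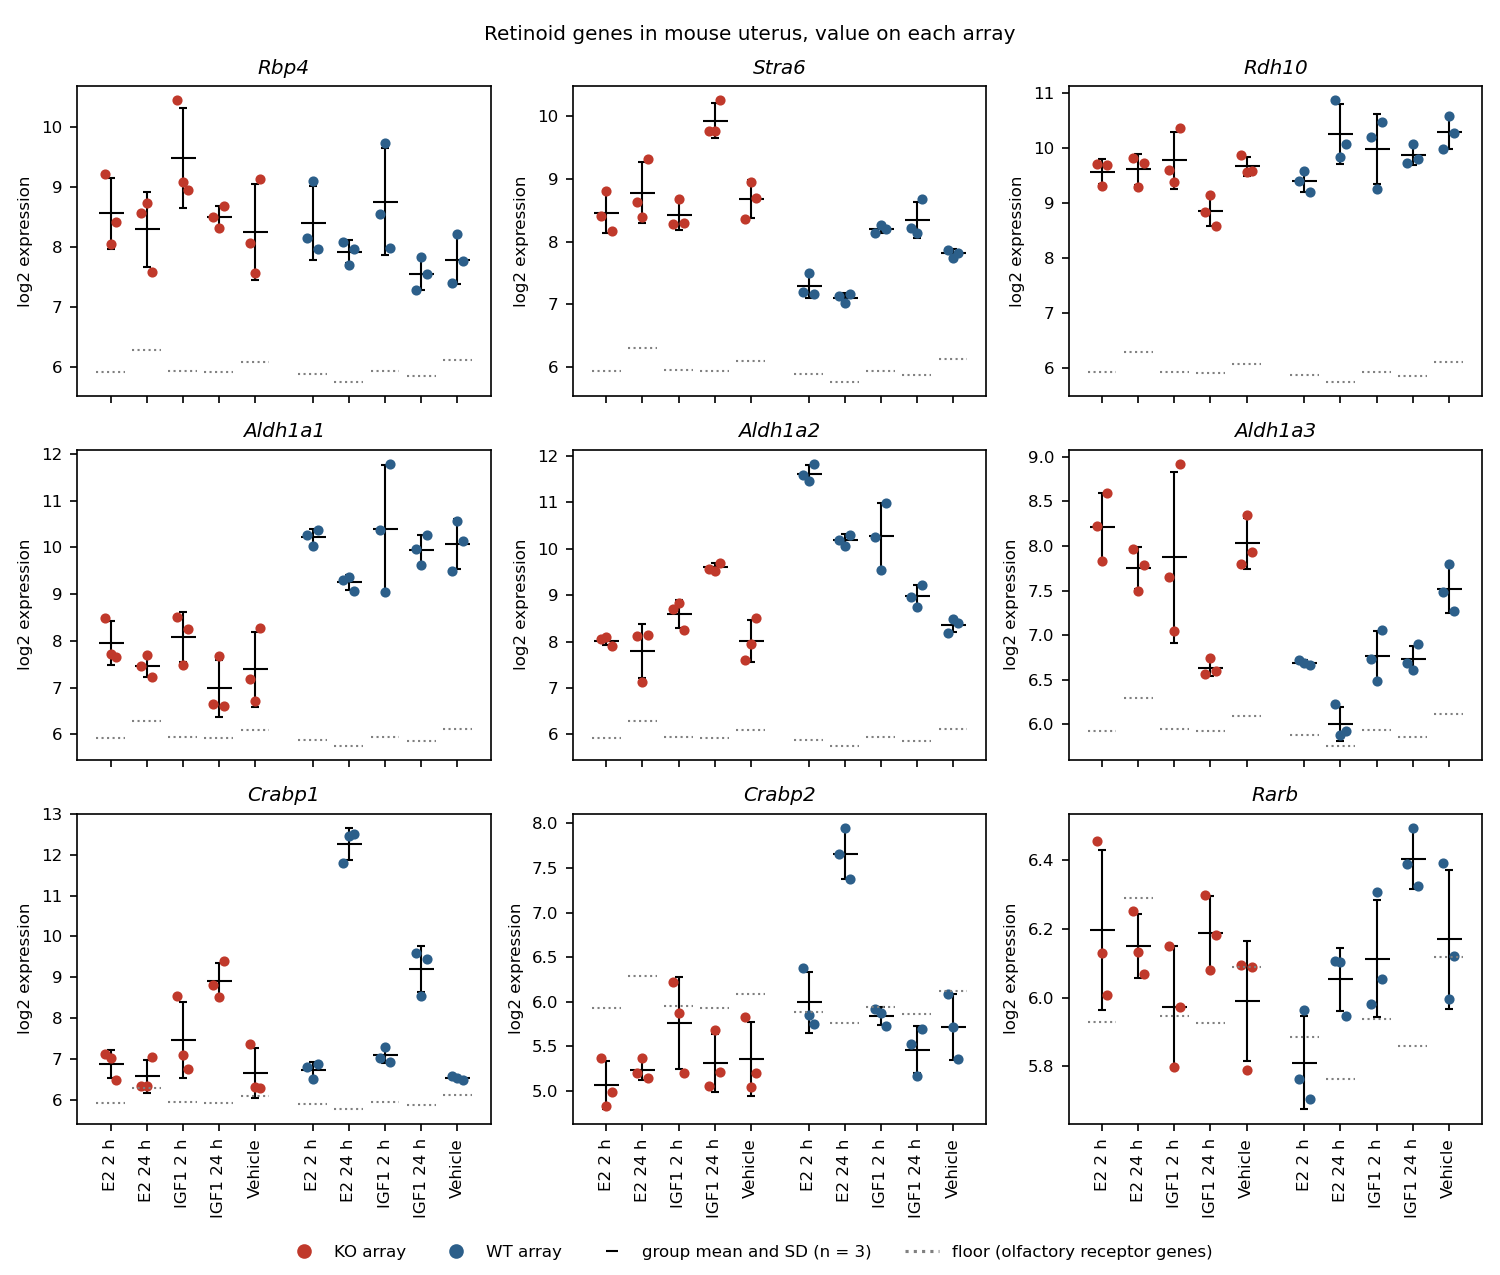
Log2 expression of each gene on every array, with KO groups left and WT groups right, the vehicle group last in each; points are arrays, bars the group mean and SD (n = 3), and dotted lines the mean floor of the group's arrays. Crabp1 in WT E2 24 h (11.81 to 12.51) and Aldh1a2 in WT E2 2 h (11.45 to 11.82) lie above every array of the other groups, and the Aldh1a1 arrays of KO (6.62 to 8.51) lie below those of WT (9.04 to 11.78).

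Rbp4, the carrier of retinol in blood, was called in none of the 21 comparisons, and its arrays spread widely within some groups. After E2 at 2 h it was at 9.21, 8.06 and 8.41 on KO arrays and 8.15, 9.11 and 7.96 on WT arrays, and at 24 h at 8.56, 8.74 and 7.58 on KO arrays and 8.09, 7.71 and 7.97 on WT arrays. After IGF1 at 2 h it was at 10.45, 9.08 and 8.95 on KO arrays and 8.55, 9.74 and 7.99 on WT arrays, and at 24 h at 8.50, 8.33 and 8.69 on KO arrays and 7.29, 7.83 and 7.56 on WT arrays. Vehicle arrays read 8.07, 7.57 and 9.14 in KO and 7.41, 8.22 and 7.76 in WT. In the order of the 10 group means, from KO IGF1 2 h at the top to WT IGF1 24 h at the bottom, all 9 pairs of neighbours overlapped. The difference of IGF1 at 2 h from vehicle in KO was 1.24 ± 0.45 (limma adjusted p = 0.103). Without KO IGF1 2 h replicate 3 it was 1.51 (limma adjusted p = 0.0485), and without KO vehicle replicate 3 it was 1.68 (limma adjusted p = 0.0429). KO minus WT under IGF1 at 24 h, Rbp4 differed by 0.94 ± 0.45 (1.92-fold, limma adjusted p = 0.358), with no overlap of arrays. Fitted on the compared groups alone, that difference was called (limma adjusted p = 0.0425).

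The 3 genes whose levels followed Rbp4 most closely over the 30 arrays, among 6042 that varied between groups above the floor, were all products of fat cells: Retn, which encodes resistin (Pearson r = 0.865), the carbonic anhydrase gene Car3 (0.855) and Adipoq, which encodes adiponectin (0.854). The mean of the 4 fat cell markers Adipoq, Plin1, Cidec and Lep correlated with Rbp4 at r = 0.893 over the 30 arrays, which share groups and tissue. That mean was 8.46 to 10.12 on the KO IGF1 2 h arrays and 6.70 to 8.97 on the KO vehicle arrays, and 7.16 to 10.30 on the WT IGF1 2 h arrays and 6.68 to 7.40 on the WT vehicle arrays. Lep lay at the floor in KO vehicle, KO IGF1 24 h and all WT groups at 24 h, and the other 3 markers were above it in every group. For the other 8 genes r with these markers ran from -0.37 for Crabp1 to 0.28 for Aldh1a3. The part of fat cell RNA in the levels of Rbp4 was not tested.

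**Figure D3:**
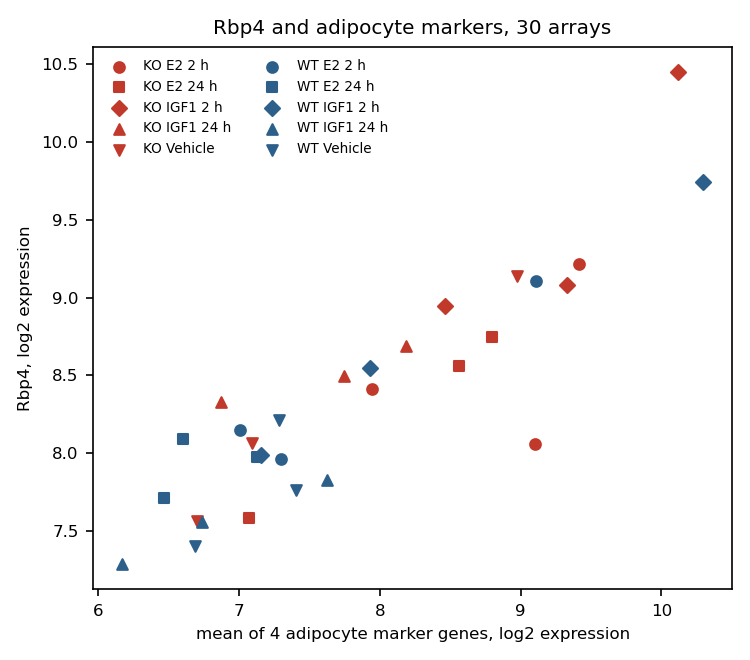
Rbp4 (log2, vertical) against the mean of the 4 fat cell markers Adipoq, Plin1, Cidec and Lep (log2, horizontal) on each of the 30 arrays, with KO in red, WT in blue and a symbol for each treatment and time. The highest points are single arrays of KO IGF1 2 h (Rbp4 at 10.45) and WT IGF1 2 h (9.74), and arrays of some groups lie far apart.

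Stra6, the membrane receptor through which cells take up retinol from its carrier, was higher in KO than in WT under every treatment, with no overlap of arrays, and limma called the difference in all but IGF1 at 2 h (0.22, adjusted p = 0.770). E2 at 24 h lowered it in WT. With IGF1 over 24 h its rise was called in KO and not in WT (0.53, 1.45-fold, limma adjusted p = 0.162), where the arrays did not overlap vehicle either and array weights gave a call (0.58, adjusted p = 0.0190). The difference between these responses was not called (0.73, limma adjusted p = 0.689). At 2 h after E2 it was at 8.40, 8.81 and 8.17 on KO arrays and 7.19, 7.49 and 7.16 on WT arrays, and after 24 h at 8.63, 8.40 and 9.32 on KO arrays and 7.12, 7.02 and 7.16 on WT arrays. After IGF1 at 2 h it was at 8.27, 8.68 and 8.30 on KO arrays and 8.14, 8.26 and 8.20 on WT arrays, and at 24 h at 9.77, 9.76 and 10.26 on KO arrays and 8.22, 8.14 and 8.68 on WT arrays. Vehicle arrays read 8.35, 8.96 and 8.70 in KO and 7.87, 7.74 and 7.82 in WT. All 3 KO IGF1 24 h arrays stood above every other array, and the 6 WT E2 arrays stood below every other array. Against vehicle, limma called a rise of 1.26 ± 0.21 (SE, 2.39-fold, adjusted p = 0.000302) for IGF1 at 24 h in KO and a fall of -0.71 ± 0.21 (1.64-fold, adjusted p = 0.0116) for E2 at 24 h in WT. The difference for E2 at 2 h in WT, -0.53 ± 0.21, was not called (1.45-fold, limma adjusted p = 0.0799), with no overlap of arrays. Array weights (-0.54, limma adjusted p = 0.0078) and the compared groups alone (0.0418) called it.

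KO minus WT, Stra6 differed by 1.18 under E2 at 2 h (2.27-fold, limma adjusted p = 0.000188), 1.68 under E2 at 24 h (3.21-fold, adjusted p = 9.16e-07), 1.59 under IGF1 at 24 h (3.00-fold, adjusted p = 9.2e-05) and 0.86 under vehicle (1.81-fold, adjusted p = 0.0196), each ± 0.21 (SE). The vehicle difference missed the threshold without KO vehicle replicate 2 (0.72, limma adjusted p = 0.150) or 3 (0.84, 0.0585), or without WT vehicle replicate 2 (0.82, 0.0695) or 3 (0.86, 0.0639). It also missed it in a fit of the 6 vehicle arrays alone with the replicate number as a block (0.86 ± 0.18, adjusted p = 0.125), and in that fit without the block (adjusted p = 0.118). Of 10 epithelium markers, limma called 6 higher and 1 lower in KO than in WT under E2 at 2 h, 0 higher and 6 lower under E2 at 24 h, 2 higher under IGF1 at 2 h, 4 higher under IGF1 at 24 h and 4 higher under vehicle, and their part in the level of Stra6 was not tested. E2 minus IGF1, Stra6 was lower after E2 in KO at 24 h (-1.15, limma adjusted p = 0.000527), in WT at 24 h (-1.25, adjusted p = 0.000232) and in WT at 2 h (-0.92, adjusted p = 0.00598). The genes most like Stra6 over the 30 arrays were Fndc5, the precursor gene of irisin (r = 0.853), Tmem132c (0.850) and the slow skeletal troponin gene Tnnt1 (0.843).

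Rdh10, which oxidizes retinol to retinal, fell in WT 2 h after E2, and 4 of its other differences lay close to the threshold. After E2 it was at 9.72, 9.32 and 9.70 on KO arrays and 9.40, 9.59 and 9.21 on WT arrays at 2 h, and at 9.82, 9.29 and 9.74 on KO arrays and 10.88, 9.84 and 10.09 on WT arrays at 24 h. After IGF1 it was at 9.60, 9.38 and 10.36 on KO arrays and 10.21, 9.26 and 10.48 on WT arrays at 2 h, and at 8.84, 9.15 and 8.59 on KO arrays and 9.73, 10.07 and 9.80 on WT arrays at 24 h. Vehicle arrays read 9.88, 9.57 and 9.58 in KO and 9.99, 10.59 and 10.28 in WT. The KO IGF1 24 h arrays were the 3 lowest of all. Limma called 1 of the 21 comparisons, a fall of -0.89 ± 0.29 (1.85-fold, adjusted p = 0.0292) in WT 2 h after E2. That call was lost without WT E2 2 h replicate 1 (adjusted p = 0.0747) or 3 (0.112), or WT vehicle replicate 2 (0.115) or 3 (0.0643), or with arrays centred on their medians (0.0851). The difference of IGF1 at 24 h from vehicle in KO (-0.81 ± 0.29, 1.76-fold, limma adjusted p = 0.0604) and the KO minus WT differences under IGF1 at 24 h (-1.01 ± 0.29, 2.01-fold, adjusted p = 0.0564) and E2 at 24 h (-0.65 ± 0.29, adjusted p = 0.0639) lay just outside the threshold, each with no overlap of arrays. The first was called with quantile normalization (limma adjusted p = 0.0222), without dim genes (0.0413), on the compared groups alone (0.0286) and with array weights (0.0399). The second was called without dim genes (limma adjusted p = 0.0391), on the compared groups alone (0.0372) and with array weights (0.00948). The third was called without WT E2 24 h replicate 2 (-0.86, limma adjusted p = 0.0307) and with arrays centred on their medians (-0.82, 0.0364). E2 minus IGF1 at 24 h in KO (0.75 ± 0.29, limma adjusted p = 0.0598) also had no overlap, and was called with quantile normalization (0.96, adjusted p = 0.0233) and array weights (0.88, 0.0242). The genes most like it were Sema3c, a guidance factor (r = 0.754), Ociad2 (0.726) and the transcription factor gene Etv5 (0.718).

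The 3 retinal dehydrogenases, which make retinoic acid from retinal, differed in pattern. Aldh1a1 was lower in KO than in WT in every treatment and showed no called change with E2 or IGF1. Limma called rises of Aldh1a2 in WT with E2 at both times and with IGF1 at 2 h. In KO it called a rise with IGF1 at 24 h alone. Aldh1a3 was higher in KO than in WT under E2 and under IGF1 at 2 h, and fell in WT with E2 and in KO with IGF1 at 24 h. Its lower levels with IGF1 in WT were not called. Limma called no difference between genotypes in the response of these 3 genes to IGF1. Across the 30 arrays Aldh1a2 and Aldh1a3 ran opposite (r = -0.70), and Aldh1a1 and Aldh1a2 ran together (r = 0.56), as descriptions over arrays that share groups.

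Aldh1a1 was at 8.50, 7.72 and 7.65 on KO arrays and 10.27, 10.03 and 10.38 on WT arrays 2 h after E2, and at 7.47, 7.70 and 7.24 on KO arrays and 9.30, 9.38 and 9.08 on WT arrays 24 h after it. After IGF1 it was at 8.51, 7.49 and 8.26 on KO arrays and 10.37, 9.04 and 11.78 on WT arrays at 2 h, and at 6.65, 7.69 and 6.62 on KO arrays and 9.96, 9.62 and 10.27 on WT arrays at 24 h. Vehicle arrays read 7.19, 6.71 and 8.27 in KO and 9.50, 10.57 and 10.14 in WT. No KO array reached the lowest WT array. Under vehicle the mean of 10 epithelium markers was 9.70 to 10.10 on KO arrays and 8.83 to 9.13 on WT arrays, with 4 of 10 called higher in KO and Foxa2 at the floor there. The mean of 6 stroma markers was 10.92 to 11.48 on KO arrays and 11.81 to 12.06 on WT arrays, with no overlap and 0 of 6 called. The part of either set of markers in the difference was not tested. KO minus WT, limma gave -2.27 under E2 at 2 h (4.82-fold, adjusted p = 0.00109), -1.78 under E2 at 24 h (3.44-fold, adjusted p = 0.0042), -2.31 under IGF1 at 2 h (4.95-fold, adjusted p = 0.00788), -2.96 under IGF1 at 24 h (7.81-fold, adjusted p = 0.000656) and -2.68 under vehicle (6.41-fold, adjusted p = 0.00129), each ± 0.47 (SE). In a fit of the 6 vehicle arrays alone with the replicate number as a block, the vehicle difference missed the threshold (-2.68 ± 0.39, limma adjusted p = 0.0581), and without the block it passed (adjusted p = 0.0462). The difference under IGF1 at 2 h was -1.61 (adjusted p = 0.0783) without WT IGF1 2 h replicate 3, -2.01 (adjusted p = 0.0529) without KO IGF1 2 h replicate 2 and -2.99 (adjusted p = 0.000363) without WT IGF1 2 h replicate 2. Fitted on the compared groups alone, it missed the threshold (limma adjusted p = 0.304). WT IGF1 2 h replicate 2 had the lowest Aldh1a1 and the highest fat cell markers of its group, and their part in its level was not tested. Against WT vehicle, Aldh1a1 differed by -0.82 ± 0.47 for E2 at 24 h (limma adjusted p = 0.198), with no overlap of arrays. E2 minus IGF1 at 24 h in WT was -0.70 ± 0.47 (limma adjusted p = 0.445), also with no overlap. Fitted on the compared groups alone, the latter was called (limma adjusted p = 0.0441).

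Aldh1a7 is close to Aldh1a1 in sequence in the mouse, and the arrays may not separate them fully. On its own probe set it averaged 6.63 in KO vehicle and 6.83 in WT vehicle. KO minus WT it was below 0 in 4 of the 5 treatments, at -0.72 under E2 at 2 h, 0.07 under E2 at 24 h, -0.99 under IGF1 at 2 h, -0.76 under IGF1 at 24 h and -0.21 under vehicle, and limma called none. Under IGF1 at 24 h its arrays did not overlap, at 6.05 to 6.28 in KO and 6.84 to 6.96 in WT. The genes most like Aldh1a1 over the 30 arrays were the tissue plasminogen activator gene Plat (r = 0.939), Bnc2, a zinc finger factor (0.922), and the kinase gene Fyn (0.896). Plat averaged 9.40 in KO vehicle and 12.13 in WT vehicle.

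Aldh1a2 was at 8.05, 8.09 and 7.91 on KO arrays and 11.58, 11.45 and 11.82 on WT arrays 2 h after E2, and at 8.11, 7.13 and 8.15 on KO arrays and 10.20, 10.05 and 10.30 on WT arrays 24 h after it. After IGF1 it was at 8.69, 8.84 and 8.24 on KO arrays and 10.24, 9.55 and 10.99 on WT arrays at 2 h, and at 9.56, 9.52 and 9.70 on KO arrays and 8.96, 8.75 and 9.22 on WT arrays at 24 h. Vehicle arrays read 7.61, 7.94 and 8.50 in KO and 8.19, 8.48 and 8.40 in WT. The WT E2 2 h arrays stood above all others, and the KO E2 arrays lay among the vehicle arrays or below them. Against WT vehicle limma gave rises of 3.26 for E2 at 2 h (9.57-fold, adjusted p = 5.79e-09), 1.83 for E2 at 24 h (3.54-fold, adjusted p = 2.12e-05) and 1.90 for IGF1 at 2 h (3.74-fold, adjusted p = 4.72e-05). Against KO vehicle the rise was 1.58 for IGF1 at 24 h (2.98-fold, adjusted p = 0.000531). Not called were rises of 0.62 for IGF1 at 24 h in WT (limma adjusted p = 0.226, no overlap of arrays) and 0.57 for IGF1 at 2 h in KO (adjusted p = 0.25). Each carries an SE of 0.28. Of 6 stroma markers, 1 was called higher and 3 lower for E2 at 2 h in WT, and 3 higher and 1 lower for IGF1 at 24 h in KO, and their part in the rises was not tested.

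The response of Aldh1a2 to E2 differed between genotypes, by -3.26 ± 0.39 at 2 h (limma adjusted p = 4.58e-06) and -2.04 ± 0.39 at 24 h (adjusted p = 0.000657). For IGF1 the difference in response was not called. It was -1.33 ± 0.39 at 2 h (limma unadjusted p = 0.0025, adjusted p = 0.51) and 0.95 ± 0.39 at 24 h (unadjusted p = 0.023, adjusted p = 0.689). KO minus WT, Aldh1a2 differed by -3.60 under E2 at 2 h (12.1-fold, limma adjusted p = 8.97e-10), -2.38 under E2 at 24 h (5.22-fold, adjusted p = 4.19e-07) and -1.67 under IGF1 at 2 h (3.18-fold, adjusted p = 0.00122), each ± 0.28. E2 minus IGF1, it was higher after E2 in WT, by 1.35 at 2 h (adjusted p = 0.00244) and 1.20 at 24 h (adjusted p = 0.00531), and lower after E2 in KO at 24 h, by -1.80 (adjusted p = 0.000134). Fitted on the compared groups alone, 2 of these missed the threshold: KO minus WT under IGF1 at 2 h (limma adjusted p = 0.208) and E2 minus IGF1 at 2 h in WT (adjusted p = 0.0558). The genes most like Aldh1a2 were Mras, a Ras relative (r = 0.927), Adamts1, a matrix protease gene (0.923), and the splicing factor gene Crnkl1 (0.920). Adamts1 averaged 12.47 in WT E2 2 h and 8.85 in WT vehicle.

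Aldh1a3 was at 8.22, 7.83 and 8.59 on KO arrays and 6.72, 6.68 and 6.67 on WT arrays 2 h after E2, and at 7.97, 7.50 and 7.79 on KO arrays and 6.22, 5.88 and 5.92 on WT arrays 24 h after it. After IGF1 it was at 7.66, 7.04 and 8.92 on KO arrays and 6.74, 6.49 and 7.06 on WT arrays at 2 h, and at 6.56, 6.74 and 6.60 on KO arrays and 6.69, 6.61 and 6.90 on WT arrays at 24 h. Vehicle arrays read 7.80, 8.35 and 7.94 in KO and 7.48, 7.79 and 7.27 in WT. The WT E2 24 h arrays were the 3 lowest and came near the mean floor of their group, 5.76. Limma gave falls of -1.51 ± 0.29 (2.84-fold, adjusted p = 0.000323) for E2 at 24 h in WT and -1.39 ± 0.29 (2.63-fold, adjusted p = 0.00206) for IGF1 at 24 h in KO. Not called were the differences of IGF1 from vehicle in WT, -0.75 at 2 h (limma adjusted p = 0.0782) and -0.78 at 24 h (0.139). Each had an SE of 0.29 and no overlap of arrays. Array weights called both, at -0.59 (limma adjusted p = 0.0219) and -0.65 (0.0333).

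The fall of Aldh1a3 at 2 h after E2 in WT (-0.82 ± 0.29, limma adjusted p = 0.0486) missed the threshold without WT E2 2 h replicate 1 (adjusted p = 0.103), 2 (0.105) or 3 (0.112), or WT vehicle replicate 1 (0.0948) or 2 (0.153), and without the 2 arrays of lowest weight (0.0943). Median centring (-0.71, limma adjusted p = 0.127) and quantile normalization (-0.75, 0.0861) lost the call too. KO minus WT, Aldh1a3 differed by 1.53 under E2 at 2 h (2.88-fold, limma adjusted p = 0.00042), 1.74 under E2 at 24 h (3.35-fold, adjusted p = 4.5e-05) and 1.11 under IGF1 at 2 h (2.16-fold, adjusted p = 0.0453), each ± 0.29. Under IGF1 at 2 h the arrays of the genotypes overlapped, and the difference was 0.59 (adjusted p = 0.267) without KO IGF1 2 h replicate 3, 1.10 (adjusted p = 0.155) without WT IGF1 2 h replicate 1, 0.97 (adjusted p = 0.162) without replicate 2 and 1.26 (adjusted p = 0.0608) without replicate 3. It also missed the threshold on the compared groups alone (limma adjusted p = 0.460) and with median centring (0.0830), quantile normalization (0.0638) or array weights (0.0596). Without KO IGF1 2 h replicate 3, the difference of IGF1 at 2 h from vehicle in KO was called (-0.68, adjusted p = 0.0442), as was E2 minus IGF1 at 2 h in KO (0.87, adjusted p = 0.0122). E2 minus IGF1 at 24 h in KO was 1.12 ± 0.29 (adjusted p = 0.00895). The genes most like it were Coch (r = 0.903), the IGF1 receptor gene Igf1r (0.886) and Bbs2 (0.883). Igf1r averaged 9.77 in WT E2 24 h and 11.55 in WT vehicle.

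The interaction of Aldh1a3 for E2 at 24 h, 1.23 ± 0.41 (limma adjusted p = 0.0348), was close to the threshold. It missed it with arrays centred on their medians (1.04, adjusted p = 0.0961), with quantile normalization (1.14, adjusted p = 0.0637) and without the 2 arrays of lowest weight (1.37, adjusted p = 0.0578). Leaving out KO E2 24 h replicate 1 or 3, KO vehicle replicate 1 or 3, WT E2 24 h replicate 2 or 3, or WT vehicle replicate 1 or 2 gave values from 1.09 to 1.24 and adjusted p from 0.0516 to 0.0719. The interaction of Stra6, 0.82 ± 0.29 (adjusted p = 0.047), missed it without KO E2 24 h replicate 3, KO vehicle replicate 1 or 3, or any 1 of the WT E2 24 h or WT vehicle arrays, with values from 0.55 to 0.86 and adjusted p from 0.0501 to 0.132. Centred on array medians it was 0.63 (adjusted p = 0.175), and on the compared groups alone it missed the threshold too (limma adjusted p = 0.104).

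**Figure D4:**
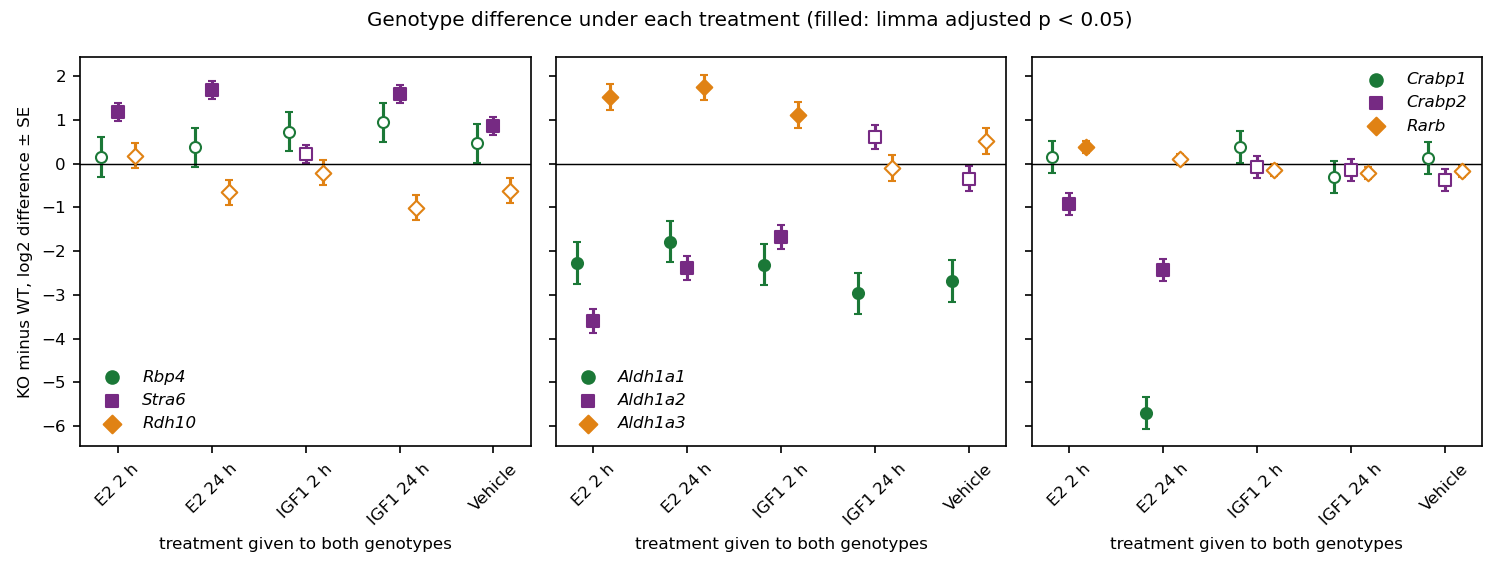
KO minus WT difference (log2 ± SE, n = 3 arrays a group) of the 9 genes under each treatment, with filled symbols where limma's adjusted p was under 0.05. Aldh1a1 is filled and below 0 in all 5 treatments, Stra6 is filled and above 0 in 4, and Crabp1 is filled under E2 at 24 h alone, at -5.69.

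Crabp1, a cytoplasmic carrier of retinoic acid, showed the widest span of group means of the 9 genes, 5.73. It was at 7.13, 7.02 and 6.47 on KO arrays and 6.81, 6.50 and 6.87 on WT arrays 2 h after E2, and at 6.33, 6.35 and 7.04 on KO arrays and 11.81, 12.47 and 12.51 on WT arrays 24 h after it. After IGF1 it was at 8.53, 7.10 and 6.76 on KO arrays and 7.03, 7.30 and 6.93 on WT arrays at 2 h, and at 8.80, 8.52 and 9.39 on KO arrays and 9.59, 8.55 and 9.45 on WT arrays at 24 h. Vehicle arrays read 7.37, 6.30 and 6.30 in KO and 6.59, 6.53 and 6.48 in WT. The order was WT E2 24 h, then the 2 IGF1 24 h groups, which overlapped each other, then the other 7 groups, and every pair of neighbours but the first overlapped. Limma gave rises against vehicle of 5.73 for E2 at 24 h in WT (53.1-fold, adjusted p = 1.1e-10), 2.25 for IGF1 at 24 h in KO (4.74-fold, adjusted p = 0.000274) and 2.67 for IGF1 at 24 h in WT (6.35-fold, adjusted p = 0.000493), each ± 0.37.

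The response of Crabp1 to E2 at 24 h differed between genotypes by -5.82 ± 0.52 (limma adjusted p = 9.11e-08), and KO minus WT under E2 at 24 h it was at -5.69 ± 0.37 (51.7-fold, adjusted p = 7.87e-11). E2 minus IGF1 at 24 h it was at -2.33 in KO (5.04-fold, limma adjusted p = 0.000154) and at 3.06 in WT (8.37-fold, adjusted p = 3.79e-06), each ± 0.37. The difference of IGF1 at 2 h from vehicle in KO, 0.80 ± 0.37, was called only without KO IGF1 2 h replicate 3 (1.16, adjusted p = 0.0491). The mean of 10 uterine epithelium markers was 11.31 to 11.38 on WT E2 24 h arrays and 8.83 to 9.13 on WT vehicle arrays, with 8 of 10 called higher. It was 10.04 to 10.93 on KO IGF1 24 h arrays and 9.70 to 10.10 on KO vehicle arrays, with 3 of 10 called higher, and 9.46 to 9.62 on WT IGF1 24 h arrays, with 1 called higher. Crabp1 correlated with that mean at r = 0.707 over the 30 arrays, and the part of epithelial RNA in its rise was not tested. Its closest genes were Fdps, which makes farnesyl diphosphate for cholesterol synthesis (r = 0.961), Jpt2 (0.960) and Pdia5, a protein disulfide isomerase gene (0.957).

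Crabp2, which carries retinoic acid to its nuclear receptors, lay above the floor only in the WT E2 groups. It was at 5.36, 4.83 and 4.99 on KO arrays and 6.37, 5.85 and 5.74 on WT arrays 2 h after E2, and at 5.20, 5.36 and 5.14 on KO arrays and 7.65, 7.95 and 7.38 on WT arrays 24 h after it. Vehicle arrays read 5.83, 5.04 and 5.20 in KO and 6.09, 5.72 and 5.35 in WT, and no IGF1 array exceeded 6.22. The WT E2 24 h arrays stood above all others. Against vehicle, E2 at 24 h in WT gave 1.94 ± 0.25 (limma adjusted p = 2.52e-06), at least 2.92-fold above the floor of the vehicle arrays. The interaction for E2 at 24 h was -2.06 ± 0.36 (limma adjusted p = 0.000222). KO minus WT it was lower by at least 2.59-fold under E2 at 24 h (-2.43 ± 0.25, limma adjusted p = 7.99e-08). E2 minus IGF1 at 24 h in WT was 2.20 ± 0.25 (limma adjusted p = 1.98e-06, at least 3.49-fold).

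Under E2 at 2 h the KO minus WT difference of Crabp2 was -0.93 ± 0.25 (limma adjusted p = 0.0103), a bound of at least 1.04-fold, and it missed the threshold without WT E2 2 h replicate 1 (adjusted p = 0.0842) or KO E2 2 h replicate 2 (0.0552). E2 minus IGF1 at 2 h in KO was called only without KO IGF1 2 h replicate 3 (-0.98, adjusted p = 0.0138), with both groups at the floor. The genes closest to Crabp2 were Dbf4, a DNA replication factor (r = 0.896), the gap junction gene Gjb2 (0.895) and Dhrs9, a retinol dehydrogenase gene (0.891). The 2 binding proteins correlated at r = 0.72 with each other over the 30 arrays.

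Rarb, the retinoic acid receptor whose own gene holds the promoter repeat shown, lay near the floor throughout, from 5.70 to 6.49 over the 30 arrays, and above its group's mean floor in 7 of 10 groups. At 2 h after E2 it was at 6.46, 6.13 and 6.01 on KO arrays and 5.76, 5.96 and 5.70 on WT arrays. Vehicle arrays read 6.10, 5.79 and 6.09 in KO and 6.39, 6.00 and 6.12 in WT. All 9 pairs of neighbouring group means overlapped. Limma called 1 of the 21 comparisons, KO minus WT under E2 at 2 h (0.39 ± 0.13, at least 1.21-fold, adjusted p = 0.045). It was lost without KO E2 2 h replicate 1 (0.26, adjusted p = 0.280) or 2 (0.42, 0.0647), or WT E2 2 h replicate 1 (0.36, 0.136) or 3 (0.33, 0.172). Median centring (limma adjusted p = 0.0631), quantile normalization (0.0639) and the compared groups alone (0.127) lost it too. Rarb at 2 h after E2 in WT (-0.36) was called without WT E2 2 h replicate 2 (adjusted p = 0.0469) or WT vehicle replicate 2 (0.0355), and its interaction for E2 at 2 h (0.57) without KO E2 2 h replicate 3 (0.0399) or WT vehicle replicate 2 (0.0455). Array weights and removal of dim genes also called the former (0.0242 and 0.0436) and the latter (0.0166 and 0.0460). Array weights called E2 minus IGF1 at 24 h in WT (-0.36, 0.0305). With all arrays limma called no change of Rarb against vehicle, and levels this near to background limit these values.

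Of 36 other genes of the pathway, 33 had a probe set of their own, and 27 of these lay above the floor in at least 1 group. Against KO vehicle, 1 of the 33 was called for E2 at 2 h, 0 for E2 at 24 h (limma, 1 at an unadjusted p under 0.05), 3 for IGF1 at 2 h and 3 for IGF1 at 24 h. As shares these came to 3.03%, 0%, 9.09% and 9.09%, beside the 0.365%, 0%, 7.13% and 13.6% of all genes. Against WT vehicle, 9 were called for E2 at 2 h (6 higher, 3 lower), 6 for E2 at 24 h (4 higher, 2 lower), 7 for IGF1 at 2 h (5 higher, 2 lower) and 2 for IGF1 at 24 h (both higher). As shares these counts came to 27.3%, 18.2%, 21.2% and 6.06% in WT, beside the 19.0%, 30.1%, 17.2% and 4.28% of all genes. The median change of the 33 genes for E2 at 24 h in WT was -0.064, beside -0.101 over all genes.

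Among the enzymes that interconvert retinol and retinal, Dhrs9, a retinol dehydrogenase, was at 9.65, 8.97 and 9.43 on WT E2 24 h arrays and at 5.54, 5.13 and 5.43 on WT vehicle arrays. The WT E2 24 h arrays were above all others, and KO E2 24 h arrays read 5.23, 5.72 and 5.18. The rise in WT was at least 9.39-fold (3.98 ± 0.24, limma adjusted p = 4.04e-11), and the interaction was -3.88 ± 0.34 (adjusted p = 6.37e-08). Dhrs4, a retinal reductase, rose in WT with E2 at 24 h (1.98 ± 0.21, limma adjusted p = 1.75e-07), and with IGF1 at 24 h in KO (1.02, adjusted p = 0.00201) and in WT (1.26, adjusted p = 0.00197). Its interaction for E2 at 24 h was -2.13 ± 0.30 (limma adjusted p = 2.39e-05). The alcohol dehydrogenase gene Adh1 was at 13.73, 13.94 and 14.09 on WT E2 2 h arrays and at 11.50, 11.87 and 11.85 on WT vehicle arrays, with no overlap (2.18 ± 0.55, 4.54-fold, limma adjusted p = 0.00538). It was at 11.21 to 12.83 on KO E2 2 h arrays and 10.32 to 10.96 on KO vehicle arrays, also with no overlap. Limma called neither that KO difference nor the interaction of Adh1 for E2 at 2 h. Under E2 at 2 h Adh1 was called lower in KO than in WT. Dhrs3, a retinal reductase, was at 12.22, 10.76 and 9.84 on KO E2 2 h arrays and at 8.27, 8.50 and 9.22 on KO vehicle arrays. It is the only one of the 33 called with E2 in KO (2.28 ± 0.42, 4.85-fold, limma adjusted p = 0.0138), its interaction was 2.19 ± 0.60 (adjusted p = 0.0229), and in vehicle it was lower in KO than in WT (-1.69 ± 0.42, adjusted p = 0.0252). Rdh11, a retinal reductase, was lower in KO than in WT under E2 at 2 h (-1.14 ± 0.19, limma adjusted p = 8.62e-05).

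**Figure D5:**
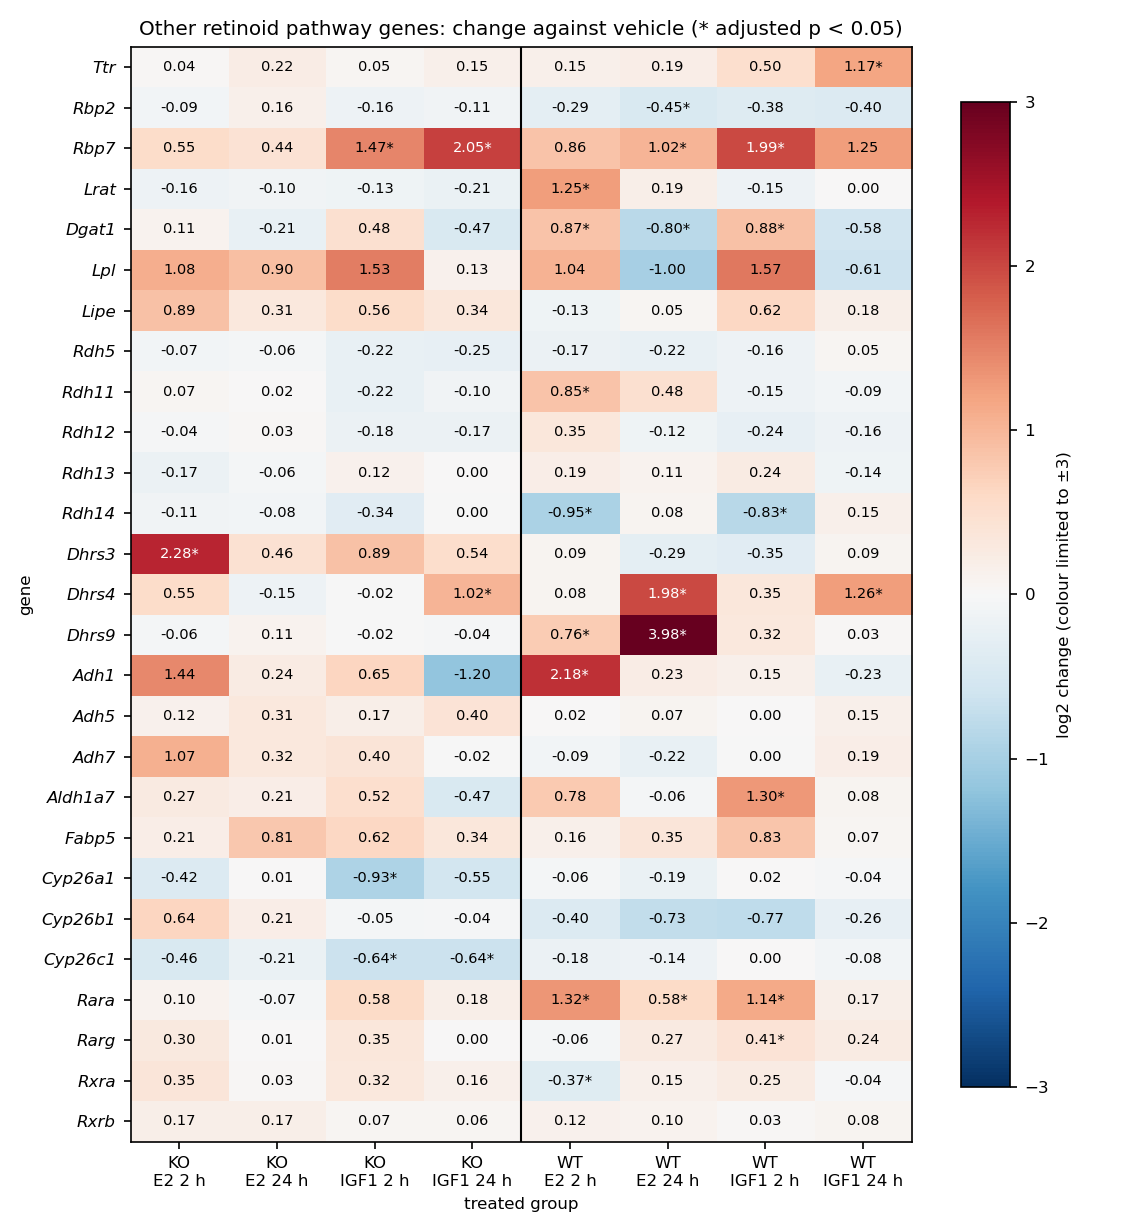
Change against vehicle of the same genotype (log2, n = 3 arrays a group) of the 27 other pathway genes that lay above the floor in at least 1 group, in 4 treated KO groups and 4 treated WT groups, by colour and number. Asterisks mark limma adjusted p under 0.05, and the darkest cell is Dhrs9 in WT E2 24 h at 3.98.

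The retinol binding protein gene Rbp7 rose with IGF1, in KO by 1.47 at 2 h (limma adjusted p = 0.0214) and 2.05 at 24 h (4.14-fold, adjusted p = 0.000889) and in WT by 1.99 at 2 h (3.96-fold, adjusted p = 0.000673), each ± 0.38. With E2 at 24 h in WT it rose by 1.02 (limma adjusted p = 0.0482). Rbp7 is also known in fat and endothelial cells. After IGF1 at 2 h its highest arrays, KO replicate 1 at 8.79 and WT replicate 2 at 9.22, were those with the highest mean of fat cell markers in their groups, 10.12 and 10.30, and the part of fat cell RNA in its rise was not tested. The retinol esterifying enzyme gene Lrat was raised only in reach of the floor, at 6.16, 5.88 and 5.85 on WT E2 2 h arrays and 4.93, 4.57 and 4.62 on WT vehicle arrays (1.25 ± 0.14, limma adjusted p = 3.58e-07), so no fold is given. Ttr, the partner of Rbp4 in blood, rose by at least 1.15-fold in WT with IGF1 at 24 h (1.17 ± 0.19, limma adjusted p = 0.00147) and was near the floor elsewhere. The lipases Lpl and Lipe, which free retinol from its esters and mark fat cells as well, were higher in KO than in WT, Lpl under E2 at 24 h (2.61 ± 0.92, limma adjusted p = 0.0244) and Lipe under E2 at 2 h (1.58 ± 0.48, adjusted p = 0.0206). Fat cell markers averaged 8.14 in KO and 6.73 in WT under E2 at 24 h, and 8.82 in KO and 7.81 in WT under E2 at 2 h, and their part was not tested. Aldh1a7 was called in WT with IGF1 at 2 h (1.30 ± 0.40, limma adjusted p = 0.0243), with overlapping arrays.

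Cyp26a1, which breaks retinoic acid down, was at 7.75, 7.60 and 7.65 on KO vehicle arrays and at 6.37, 6.01 and 6.04 on WT vehicle arrays. KO arrays were the higher ones, with no overlap. KO minus WT it differed by 1.17 under E2 at 2 h (limma adjusted p = 0.000434), 1.72 under E2 at 24 h (adjusted p = 1.75e-06), 1.01 under IGF1 at 24 h (adjusted p = 0.012) and 1.52 under vehicle (2.87-fold, adjusted p = 0.000208), each ± 0.22. Its relative Cyp26c1 was higher in KO vehicle than in WT vehicle by at least 1.29-fold (1.09 ± 0.18, limma adjusted p = 0.000548). Among receptors, Rara was at 9.07, 8.98 and 8.99 on WT E2 2 h arrays and 9.13, 8.61 and 8.77 on WT IGF1 2 h arrays, against 7.59, 7.69 and 7.80 on WT vehicle arrays. Both treated groups lay above vehicle with no overlap, by 1.32 for E2 (2.50-fold, limma adjusted p = 2.94e-05) and 1.14 for IGF1 (2.21-fold, adjusted p = 0.00026), each ± 0.20. The interaction of Rara for E2 at 2 h was -1.22 ± 0.28 (limma adjusted p = 0.00686).

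Set against each other within a genotype and time, E2 and IGF1 share no vehicle arrays. They still differ in the solvent and, at 24 h, in the number of injections and the time since the last. E2 minus IGF1, limma called 0 of the 9 genes in KO at 2 h (3.04% of all genes, 2 of the 9 at an unadjusted p under 0.05) and 4 in KO at 24 h (21.5%). In WT it called 2 at 2 h (5.57%) and 4 at 24 h (10.1%). At 24 h Crabp1 and Aldh1a2 were higher after E2 than after IGF1 in WT and lower in KO, while Stra6 was lower after E2 in both genotypes.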

How the data were processed

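Total RNA was extracted with Trizol and an RNeasy clean-up, and 300 ng was amplified and labelled, per the labels' protocols. The authors deposited log2 values for 72688 probe sets. Which software, background correction, normalization and array build they used is not given in the sources used here. An annotation paired 30604 probe sets with 1 symbol (827 updated through Entrez), 2146 with several and the rest with none. Where a gene had several (355 genes), its brightest probe set on average was kept. The members, lists and tests were chosen with earlier results of these data known. With limma 3.58.1 in R 4.3.3 (lmFit, eBayes, 20 residual and 3.66 prior degrees of freedom), group means over 30 arrays were fitted for 21 comparisons, adjusted by Benjamini-Hochberg over 30142 genes in each. The test assumes normal errors. All 9 members are named. Other pathway genes were named when called and changed at least 2-fold or close in sequence, and the 3 genes of highest Pearson correlation were named for each of 8 members whose group means span at least 1. Folds against a group at the floor are lower bounds. Precision is limited by 3 arrays a group. Alternatives were median centring, quantile normalization, removal of dim genes (18204 kept), only the compared groups, array weights, the mean of probe sets, another prior, a replicate block (also on the vehicle arrays alone, whose same-numbered arrays deviated together), the 2 arrays of lowest weight left out, and each array left out. The fit was tested on simulated data. Replicates correlated at 0.9742 to 0.9948 within groups, and no pair was identical. Tables were handled in Python 3.11.15 with pandas 2.3.3.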

Additional observations from a re-analysis of the deposited data

Results flagged for a closer look

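For 5 genes the change with E2 at 24 h against vehicle differed between KO and WT by limma's interaction test, and for Aldh1a2 the change at 2 h did as well. At 24 h the KO change less the WT change was -5.82 for Crabp1, -2.06 for Crabp2, -2.04 for Aldh1a2, 1.23 for Aldh1a3 and 0.82 for Stra6, and at 2 h it was -3.26 for Aldh1a2. The KO and WT vehicle arrays enter all of them. In bulk uterus the part of cell composition in these differences was not tested.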

How the results depend on the processing

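Of 49 called differences of the 9 genes, 37 were called under every alternative and 12 were lost under some, while 21 of 140 not called passed under some, and no call changed direction. Centring on array medians gave 1 in place of 3 for E2 at 2 h against vehicle in WT and 3 in place of 5 for the interaction of E2 at 24 h. Array weights gave 6 in place of 3 for E2 at 2 h, 2 in place of 1 for IGF1 at 2 h and 3 in place of 1 for IGF1 at 24 h in WT, and 2 in place of 1 for the interaction of E2 at 2 h, which removal of dim genes also raised to 2. Fitted on the compared groups alone, KO minus WT gave 0 in place of 3 under IGF1 at 2 h, 4 in place of 2 under IGF1 at 24 h and 1 in place of 2 under vehicle, and E2 minus IGF1 at 2 h in WT gave 1 in place of 2. Smaller relative moves under one or more of the alternatives were 2 or 4 in place of 3 for E2 at 2 h in WT, 5 in place of 4 for IGF1 at 24 h in KO, 4 in place of 5 for the interaction of E2 at 24 h, and, for KO minus WT, 5 in place of 6 under E2 at 2 h, 7 in place of 6 under E2 at 24 h, 2 in place of 3 under IGF1 at 2 h and 3 in place of 2 under IGF1 at 24 h. E2 minus IGF1 gave 5 in place of 4 in KO at 24 h, 3 in place of 2 in WT at 2 h and 6 in place of 4 in WT at 24 h. The causes were not tested.

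Leaving out each array in turn gave 0 to 3 calls for IGF1 at 2 h against vehicle in KO and 1 to 3 for E2 at 2 h in WT. KO minus WT gave 4 to 6 under E2 at 2 h, 6 to 7 under E2 at 24 h, 1 to 3 under IGF1 at 2 h and 1 to 2 under vehicle. Interactions gave 1 to 2 for E2 at 2 h and 3 to 5 for E2 at 24 h, and E2 minus IGF1 at 2 h in KO gave 0 to 2. Summed over comparisons, calls ran from 12 to 20 against vehicle (14 with all arrays), 16 to 20 between genotypes (19), 4 to 7 for interactions (6), 10 to 14 for E2 minus IGF1 (10) and 70 to 88 for the other pathway genes (83). Under the remaining alternatives the other pathway genes gave 65 to 107 calls.

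With the replicate number as a block over all arrays, counts of the 9 genes were 14 against vehicle, 19 between genotypes, 6 for interactions and 10 for E2 minus IGF1, and 81 for the other pathway genes, and the count of no comparison changed. Deviations of arrays with the same number correlated at -0.285 to 0.433, with every pair over 0.1 in 1 of 17 comparisons, KO minus WT under vehicle (0.433, 0.147 and 0.296). By that measure same-numbered arrays deviated together for the vehicle arrays of the genotypes and for no other compared groups. IGF1 at 24 h against vehicle in WT gave 0.19, 0.102 and 0.083. The value of 0.433 was that of replicate 1, with array weights of 0.391 in KO vehicle and 0.166 in WT vehicle. The part of array quality in these correlations was not tested, nor was whether the numbers mark pairs. With the block in a fit of the 6 vehicle arrays alone, chosen after seeing the data, limma called 0 of the 9 genes in place of 2 (4 at an unadjusted p under 0.05) on 2 residual degrees of freedom. Array signal near the floor limits Crabp2 and Rarb.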
